A study of Mus musculus with 12 samples.

Results

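The genes of fatty acid synthesis and elongation described here were Acly, Acaca, Acacb, Fasn, Elovl5, Elovl6, Scd1, Scd2, Thrsp and Mlxipl, 10 genes of the 19057 named on the array, chosen by name. All probes with these platform gene symbols were taken, 14 of 45281. The muscle RNA came from 6 wild-type mice (WT) and from 6 transgenic mice (TG) with overexpression of Nur77, an orphan nuclear receptor whose gene is Nr4a1. All mice, WT and TG, had been fasted overnight. The titles give the muscle as "Gastr". The sources used here give no strain, age or sex and do not name the promoter of the transgene. RNA of 2 mice was combined in each pool, and each of the 3 WT and 3 TG pools was measured on 1 array of each of 2 Illumina mouse chips. Replicates are therefore the pools, n = 3 per genotype, and the 12 arrays are technical repeats of 6 pools. Values below are linear signals averaged over the 2 arrays of a pool, or log2 differences TG minus WT after normalisation.

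New fatty acids are built in the cytosol from citrate. Acly cleaves citrate to acetyl-CoA, the acetyl-CoA carboxylases Acaca and Acacb make malonyl-CoA, and Fasn joins these units to palmitate. Elongases (Elovl5, Elovl6) and stearoyl-CoA desaturases (Scd1, Scd2) then lengthen and desaturate the chains. In muscle, malonyl-CoA made by Acacb at the mitochondrial surface is best known as an inhibitor of fatty acid entry for oxidation. Mlxipl, also called ChREBP, switches the pathway on in response to glucose, and Thrsp is a nuclear protein that follows lipogenic activity. Fasting lowers most of these transcripts in liver and fat.

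Between 17607 and 19118 probes were detected per array. The first principal component (57.8% of the variance) separated the genotypes. On the second (15.5%), WT1 on chip 2 (28.3) and TG3 on both chips (12.3 and 17.9) had the highest scores. The TG1 and TG2 arrays lay at -15.7 to -10.6, and the other WT arrays at -3.6 to 1.1. The signal of 4 macrophage genes, summed over their probes, was 4022 in WT1 and 8935 in TG3. In the other 4 pools it was 947 (WT2) and 923 (WT3), against 1721.5 (TG1) and 1903 (TG2). All 8 skeletal muscle markers were detected on all 12 arrays. The Nr4a1 probe was detected on 0 of 12 arrays and gave no check of the genotype labels.

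In TG muscle, Elovl5 was 1.37-fold and Acly 1.21-fold higher than in WT after normalisation, and no member was called lower. The mean linear signals were closer, at 829 in WT and 1069 in TG for Elovl5 and at 985 and 1109 for Acly. The call for Acly was lost when any of the pools was left out. Scd1, Scd2, Acacb, Thrsp and Mlxipl had tested probes that did not pass, and Fasn, Elovl6 and Acaca had no probe that passed the filter on detection: Acaca was detected on 0 arrays, and Fasn and Elovl6 each on 5 of 12. Of the 14 probes, 8 (7 genes) passed the filter, which asked for detection on every array of WT or of TG, and were tested. Of these 8, 2 were called higher, 0 lower and 6 not called at an adjusted p under 0.05 by limma. Of the 4 negative differences, that of Thrsp alone had an unadjusted p under 0.05 (0.0225). Among all 15708 tested probes, 11.3% were called higher, 14.6% lower and 25.8% in either direction, so the members' share of 25% lay at the background. TG and WT pools did not overlap after normalisation for 4 of the 8 probes, against 45.2% of all tested probes. The differences were positive for 4 and negative for 4 probes, with a median of -0.042, against -0.021 over all tested probes. The Scd2 probe passed the filter through its WT arrays alone, and without it 4 of 7 were positive, with a median of 0.035.

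**Figure D1:**
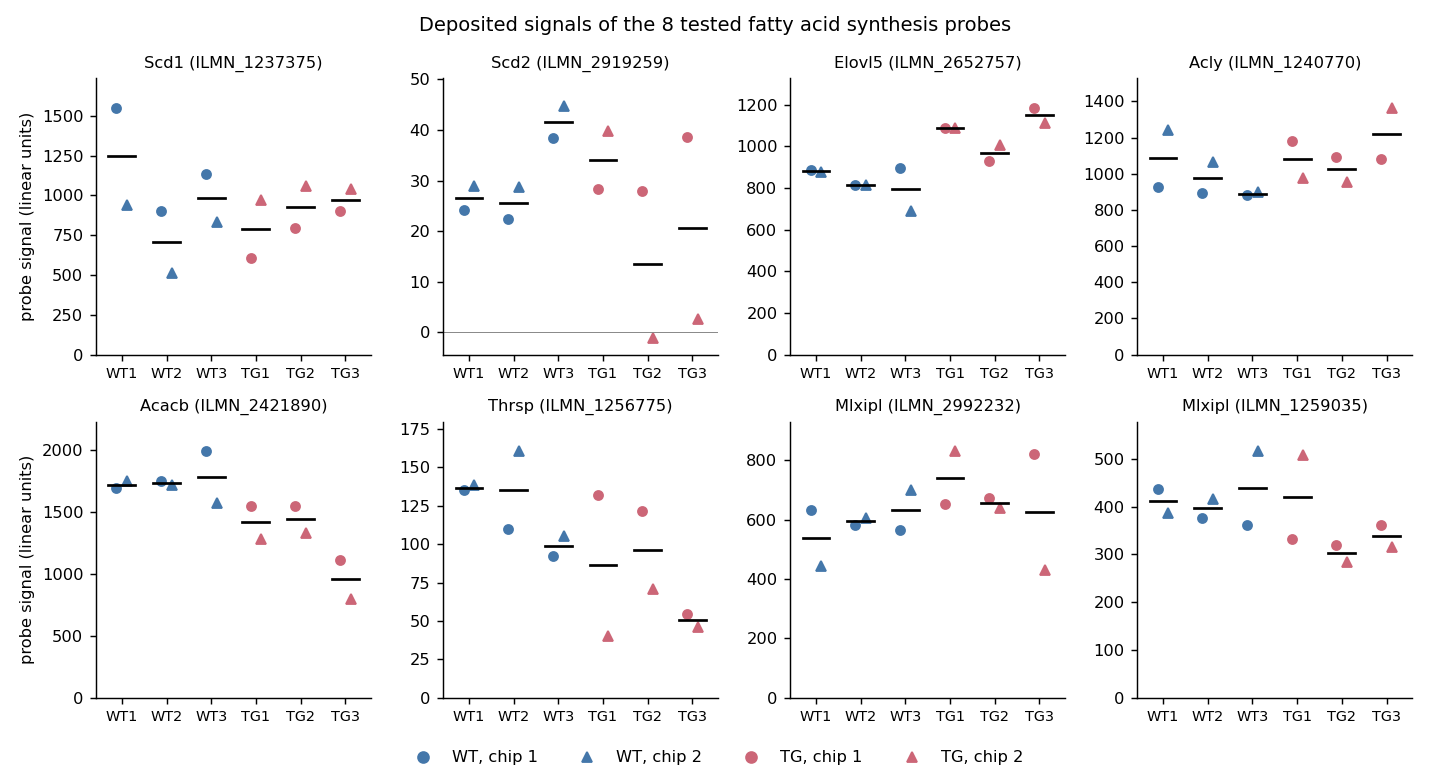
Linear signal (vertical axis, from 0 or from below 0 for Scd2) of the 8 tested probes in the 6 pools (horizontal axis). Circles are chip 1 arrays, triangles chip 2 arrays, and bars the mean of the 2 arrays. For Elovl5 the 3 TG pools lie at 968 to 1149, above the 3 WT pools at 793 to 881, while for Scd1 circles and triangles are ordered in opposite ways.

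Elovl5 lengthens polyunsaturated acyl chains in the endoplasmic reticulum. Its probe (ILMN_2652757) gave signals of 881, 813 and 793 in pools WT1, WT2 and WT3, and of 1089.9, 968 and 1149 in TG1, TG2 and TG3. Every TG pool lay above every WT pool, and this held on each chip by itself. The difference was 0.46 ± 0.08 on the log2 scale (SE, n = 3; 95% confidence interval 0.28 to 0.63), with an adjusted p of 0.0052 by limma. It was 0.35 on chip 1 and 0.56 on chip 2. The call held under 17 of 18 alternative settings. In the authors' deposited table the difference was 0.39 and the adjusted p 0.0507 by limma.

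The 5 genes whose 12 normalised array values followed Elovl5 most closely were named by Pearson's r, as a description. They were Htra2, a mitochondrial serine protease (r = 0.97), and Larp6, an RNA-binding protein (0.95). Rnf130, a RING finger protein (0.94), Car2, a carbonic anhydrase (0.93), and Aldh1a7, an aldehyde dehydrogenase (0.93), came next. The arrays share pools and genotypes, and all 5 genes were themselves higher in TG, by 0.58 (Car2) to 4.17 (Aldh1a7) on the log2 scale. Within the 6 arrays of a genotype r was lower, from 0.50 (Car2) to 0.88 (Htra2) in WT and from 0.36 (Aldh1a7) to 0.79 (Htra2) in TG.

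Acly, the enzyme that supplies cytosolic acetyl-CoA, gave signals of 1086, 979 and 890.15 in WT1, WT2 and WT3 (ILMN_1240770). In TG1, TG2 and TG3 they were 1081, 1024 and 1222. As linear signals the groups overlapped, since WT1 lay above TG1 and TG2. After normalisation they did not, with log2 levels of 10.06, 9.98 and 9.87 in the WT pools and 10.23, 10.17 and 10.34 in the TG pools. The difference was 0.28 ± 0.08 on the log2 scale (SE, n = 3; 95% confidence interval 0.09 to 0.47), with an adjusted p of 0.0403 by limma. It was 0.37 on chip 1 and 0.19 on chip 2. The call was lost under 11 of 18 alternatives. Leaving out any of WT1, WT2, WT3, TG1, TG2 or TG3 gave 0.23 to 0.32 with adjusted p between 0.0517 and 0.127. Scaling by the 75th percentile gave 0.19 (adjusted p = 0.244), and chip 2 alone also gave 0.19 (adjusted p = 0.461).

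The promoters of the 2 genes called higher are shown because Nur77 binds DNA as a monomer at the element AAAGGTCA (NBRE) and because regulators of lipogenesis act at E-boxes and sterol elements. Each window runs from 250 bases before to 50 after the RefSeq start (GRCm38.p6). Elovl5 is at chr9:77917115-77917414 on the plus strand and Acly at chr11:100527951-100528250 on the minus strand. Capitals mark matches, on either strand, to the E-box CACGTG, the CCAAT box and the nuclear receptor hexamer AGGTCA.
Elovl5: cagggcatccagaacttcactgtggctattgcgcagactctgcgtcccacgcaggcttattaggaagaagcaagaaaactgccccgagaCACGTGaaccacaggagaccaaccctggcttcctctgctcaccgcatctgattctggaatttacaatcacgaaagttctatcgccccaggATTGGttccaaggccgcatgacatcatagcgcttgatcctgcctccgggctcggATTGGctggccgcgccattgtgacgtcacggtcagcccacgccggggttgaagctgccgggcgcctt
Acly: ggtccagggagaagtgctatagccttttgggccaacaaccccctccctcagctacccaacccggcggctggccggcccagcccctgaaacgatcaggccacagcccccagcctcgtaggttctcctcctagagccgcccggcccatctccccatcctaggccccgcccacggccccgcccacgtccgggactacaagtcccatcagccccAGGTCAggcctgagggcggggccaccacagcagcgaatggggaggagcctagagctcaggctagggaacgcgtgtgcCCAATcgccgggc
RefSeq windows matched 8 of the 10 members, with 2 for Mlxipl and none given for Scd1 and Scd2. The NBRE was in 0 of these 9 windows and in 1.51% of 32851 promoter windows of this length. AGGTCA, which the NBRE contains, was in the windows of Acly, Acacb and Elovl6 (3 of 9, against 16.3%). CACGTG was in Elovl5, 161 bases before the start, and in Mlxipl (2 of 9, against 7.15%). CCAAT was in 6 of 9 windows (37.4% of all), GGGCGG in those of Acly and Mlxipl (35.7%), and the sterol element core CACCCCAC in 0 (2.87%). All were searched on both strands. A match is a run of letters, and no binding was measured.

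Scd1, the desaturase that makes monounsaturated chains from saturated ones, gave signals of 1244, 706 and 985 in WT1, WT2 and WT3 and of 787, 926 and 968 in TG1, TG2 and TG3 (ILMN_1237375). The TG pools lay within the range of the WT pools, and the difference was 0.035 ± 0.17 on the log2 scale (SE, n = 3; 95% confidence interval -0.36 to 0.43; adjusted p = 0.896 by limma). This mean held opposite values on the 2 chips, which carry the same 6 pools. On chip 1 the WT arrays read 1548, 902 and 1136 and the TG arrays 606, 796 and 899, so that all TG arrays were below all WT arrays (log2 difference -0.51). On chip 2 the WT arrays read 940.1, 511 and 835 and the TG arrays 968, 1056 and 1038, and all TG arrays were above all WT arrays (0.58). The difference between chips was 1.09 on the log2 scale, with an unadjusted p of 3.84e-05 and an adjusted p of 0.603 by limma. Its p was the smallest of 15708 tested probes. Of these probes, 41 (0.261%) had genotypes apart in opposite directions on the 2 chips, and 893 (5.69%) had an unadjusted p under 0.05, with 0 called after adjustment.

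**Figure D2:**
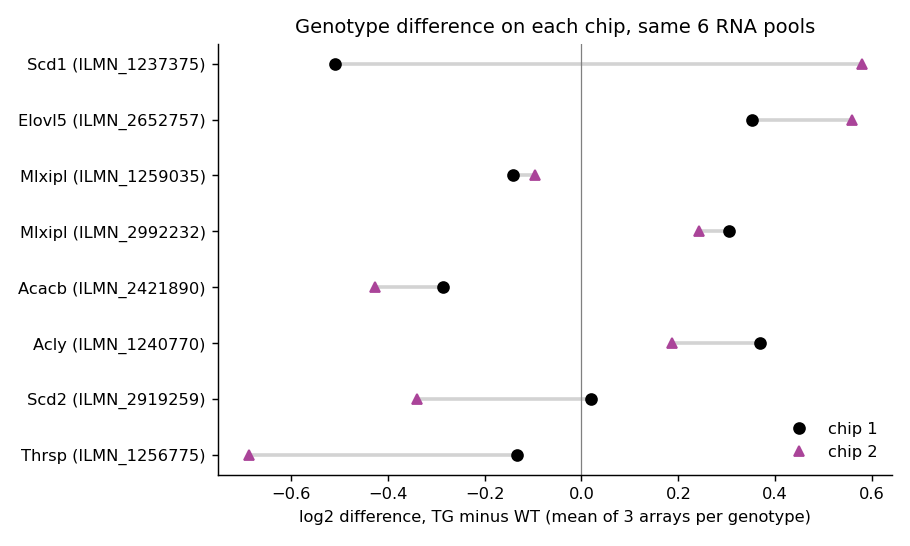
Log2 difference TG minus WT (horizontal axis) of the 8 tested probes on chip 1 (circles) and chip 2 (triangles), each from 3 arrays per genotype. Scd1 runs from -0.51 to 0.58, and the second widest gap is that of Thrsp, from -0.13 to -0.69.

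Scd2, a desaturase gene in the same run of Scd genes as Scd1 in the RefSeq gene order, gave signals of 26.6, 25.5 and 41.6 in the WT pools and of 34.05, 13.45 and 20.65 in the TG pools (ILMN_2919259). It was detected on 6 of 6 WT and 4 of 6 TG arrays, and the undetected arrays were those of TG2 and TG3 on chip 2, at -1.1 and 2.6. Because it passed the filter through WT alone, its difference is given as a description. The groups overlapped, and TG minus WT was -0.16 ± 0.12 on the log2 scale (SE, n = 3), which was not called. The value depended on how these dim signals were treated. It was -0.45 without background correction and -0.43 under 75th percentile scaling, both with signals floored at 10. In the authors' deposited table, which was rebuilt from signals floored at 1, it was -1.30. It was 0.020 on chip 1 and -0.34 on chip 2, -0.28 without TG1, -0.074 without WT3 and -0.082 without TG2.

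Acacb, the carboxylase of the mitochondrial surface and the form best known in muscle, gave signals of 1717, 1734 and 1777 in WT1, WT2 and WT3 and of 1414, 1439 and 955 in TG1, TG2 and TG3 (ILMN_2421890). All TG pools lay below all WT pools, and TG3 was far below the rest. TG minus WT was -0.36 ± 0.16 on the log2 scale (SE, n = 3; 95% confidence interval -0.72 to 0.01), and it did not pass the test (adjusted p = 0.134 by limma). Without TG3 it was -0.15 (adjusted p = 0.151). TG3 is the pool with the highest macrophage signal, and the part of those cells in this value was not tested. The second Acacb probe (ILMN_2680256) was detected on 1 of 12 arrays and was not tested. In pooled muscle RNA, fewer cells of a type and less RNA per cell cannot be told apart.

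Thrsp gave signals of 136.55, 134.95 and 98.75 in WT1, WT2 and WT3 and of 86.15, 96.15 and 50.3 in TG1, TG2 and TG3 (ILMN_1256775). The groups did not overlap, though WT3 and TG2 were close, and TG3 was again the lowest. TG minus WT was -0.41 ± 0.15 on the log2 scale (SE, n = 3; 95% confidence interval -0.75 to -0.07), with an adjusted p of 0.0723 by limma, which did not pass. Without background correction it was -0.77, and under 75th percentile scaling and in the authors' deposited table -0.78, not called in any of these (adjusted p from 0.0771 to 0.0947). It was -0.13 on chip 1, where TG1 and TG2 read 132.1 and 121.7 and lay among the WT arrays at 92.1 to 134.9. It was -0.69 on chip 2, where the TG arrays read 40.2, 70.6 and 46 and all WT arrays lay between 105.4 and 160.4. Chip 2 alone gave an adjusted p of 0.0248 by limma, while the difference between chips (-0.55) had an unadjusted p of 0.0244 and an adjusted p of 0.844. Without TG3 the value was -0.25 (adjusted p = 0.0912). The second Thrsp probe (ILMN_1243094) was detected on 0 of 12 arrays.

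Mlxipl was read by 2 tested probes, which gave differences of opposite sign. Probe ILMN_2992232 gave signals of 537, 594 and 632 in the WT pools and of 741, 655 and 626 in the TG pools, with TG3 inside the WT range. TG minus WT was 0.27 ± 0.11 on the log2 scale (SE, n = 3; 95% confidence interval 0.017 to 0.53; adjusted p = 0.108 by limma). Without TG3, whose arrays read 821 and 431, it was 0.36 with an adjusted p of 0.0339. Probe ILMN_1259035 gave 413, 397 and 439 in the WT pools and 419, 302 and 338 in the TG pools. Its log2 difference was -0.12 ± 0.11 (SE; 95% confidence interval -0.38 to 0.14; adjusted p = 0.461 by limma). Leaving out each pool in turn gave -0.24 to -0.046 for this probe. Neither probe passed with all 6 pools.

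**Figure D3:**
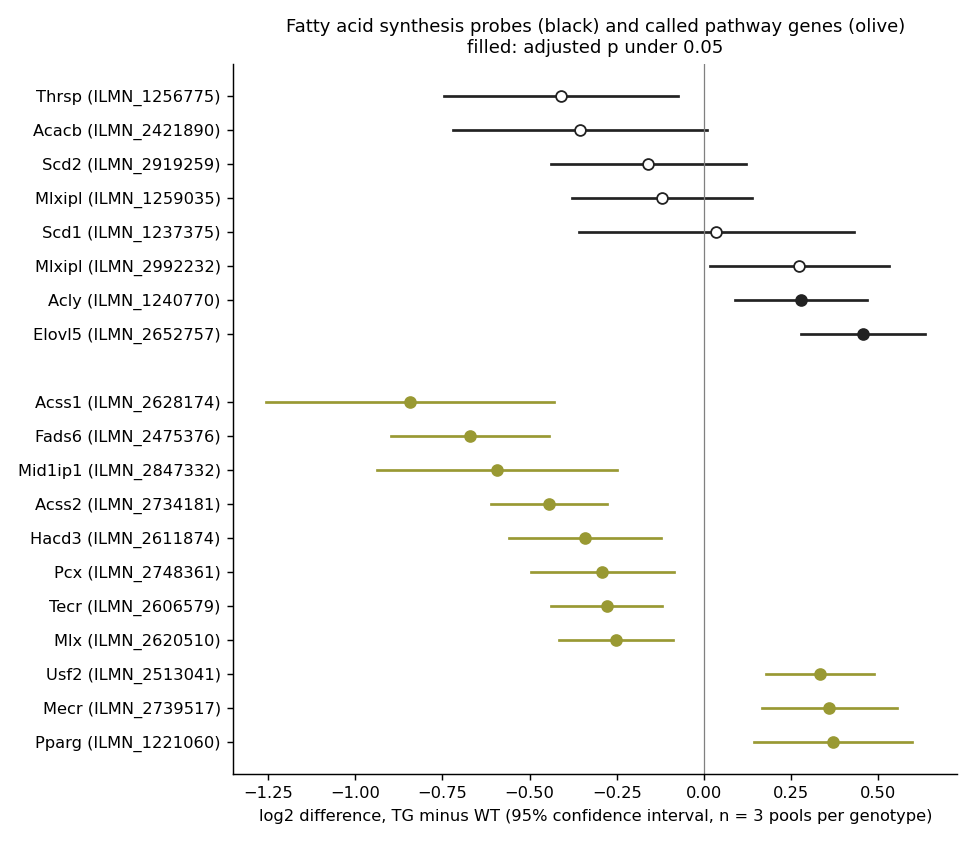
Log2 difference TG minus WT with its 95% confidence interval (horizontal axis, n = 3 pools per genotype) of the 8 tested member probes (black) and of the 11 called genes of the wider pathway (olive). Filled points passed an adjusted p under 0.05. Elovl5 (0.46) and Acly (0.28) are the filled black points, and the olive points run from Acss1 (-0.84) to Pparg (0.37).

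Fasn (ILMN_2874104) gave 22.95, 19.25 and 12.05 in the WT pools and 17.95, 12.55 and 10.65 in the TG pools, and was detected on 4 of 6 WT and 1 of 6 TG arrays. The lowest detected signal on an array was between 13.7 and 16.6, so the pool values lie around that limit, and the groups overlapped. Acaca, the cytosolic carboxylase, was read by ILMN_1227339 alone, which was detected on 0 arrays, with signals between -11.2 and -0.5. For Thrsp, 1 probe was likewise detected on 0 arrays and the other on 12. An undetected probe therefore does not show that the transcript is absent. Elovl6, the elongase of palmitate, gave 17.1, 4.95 and 7.05 in the WT pools and 18.2, 14.75 and 28.6 in the TG pools with probe ILMN_2614752, detected on 1 WT and 4 TG arrays. The 4 detected TG arrays read 19.8 to 30.5, and the groups overlapped. Its probe ILMN_1228218 was detected on 0 arrays. With 3 against 3 pools an exact permutation test cannot go below 0.1, so it was not used to judge these genes. Their values are given as a description, and for Acaca there was no detected signal to compare.

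**Figure D4:**
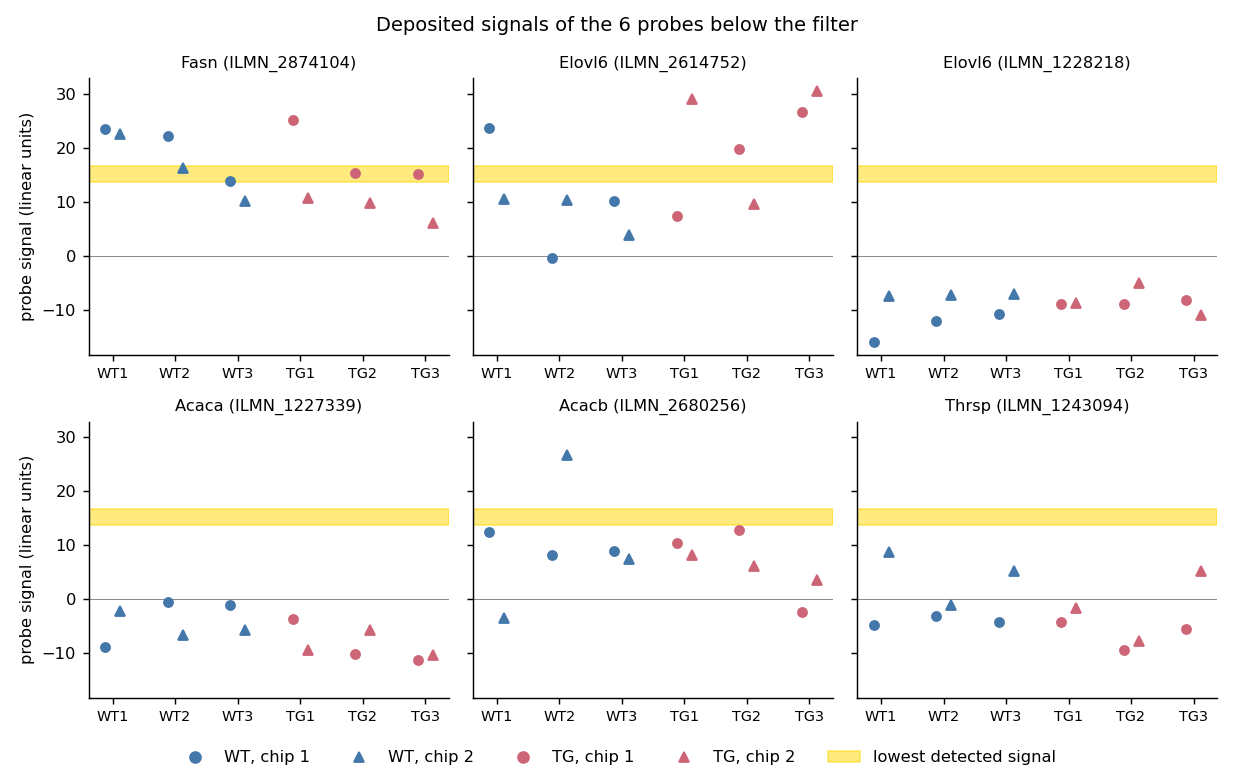
Linear signal (vertical axis, same scale in all panels) of the 6 member probes that were not tested, by pool, with circles for chip 1 and triangles for chip 2. The shaded band spans the lowest detected signal of the 12 arrays, 13.7 to 16.6. Fasn lies around the band, 4 of the 6 TG arrays of Elovl6 (ILMN_2614752) lie above it, and Acaca lies below 0 on all arrays.

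The wider pathway was read from 4 lists of other genes, with 1 probe a gene, and among all 9131 tested genes 12.1% were called higher and 15.9% lower. Of 54 listed genes on the array, 40 were tested, of which 3 were called higher, 8 lower and 29 not called. Their median log2 difference was -0.053, against -0.015 over all tested genes.

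Among the suppliers of acetyl-CoA and NADPH, 3 of 7 tested genes fell, 0 rose (0 at an unadjusted p under 0.05 by limma) and 4 were not called (median -0.21). Acss2, the nuclear and cytosolic acetyl-CoA synthetase, gave 1156, 1211 and 1201 in the WT pools and 746, 822 and 794 in the TG pools. It fell by 0.44 ± 0.07 on the log2 scale (SE, adjusted p = 0.00445 by limma). Acss1, the mitochondrial acetyl-CoA synthetase, gave 3728, 4061 and 3013 in the WT pools and 2051, 2159 and 1379 in the TG pools. Its log2 difference was -0.84 ± 0.18 (adjusted p = 0.0125 by limma), and -0.76 (adjusted p = 0.0566) without WT2. Pcx, the pyruvate carboxylase that refills oxaloacetate, had a difference of -0.29 ± 0.09 (adjusted p = 0.0451). Its call was lost without WT2, WT3, TG1 or TG3 (-0.26 to -0.25, adjusted p from 0.0742 to 0.149), and the difference was -0.60 without background correction, under 75th percentile scaling and in the authors' deposited table. Slc25a1, the citrate carrier that feeds Acly, was not called (0.16 ± 0.11), nor was Me1, the malic enzyme that yields NADPH (-0.21 ± 0.12).

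Among the other desaturases and the enzymes of the elongation cycle, 3 of 9 tested genes fell, 0 rose (0 at an unadjusted p under 0.05 by limma) and 6 were not called (median -0.045). Fads6, a member of the fatty acid desaturase family, gave 154.7, 179.6 and 146.15 in the WT pools and 63.4, 85.95 and 71.3 in the TG pools. Its difference of -0.67 ± 0.10 (SE, adjusted p = 0.00275 by limma) passed under all 18 alternatives, and was -1.14 in the authors' deposited table. Hacd3, a dehydratase of the cycle, had -0.34 ± 0.09 (adjusted p = 0.0336), and its call was lost without any pool but TG3 (-0.38 to -0.27, adjusted p from 0.0602 to 0.104). Tecr, the last reductase of the cycle, had -0.28 ± 0.07 (adjusted p = 0.0218) with 1 of its 3 probes. The other probes gave -0.13 and 0.15 and were not called, and the first was lost without WT2, WT3, TG1 or TG2 (-0.29 to -0.25, adjusted p from 0.0539 to 0.0899). Fads1, a desaturase of the polyunsaturated route that Elovl5 serves, was not called (0.29 ± 0.15). Elovl1, an elongase of long saturated chains, was not called either (-0.01 ± 0.12).

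Among the genes of malonyl-CoA use and of mitochondrial fatty acid synthesis, 1 of 6 tested genes rose, 0 fell (1 at an unadjusted p under 0.05 by limma) and 5 were not called (median -0.11). Mecr, the reductase of the mitochondrial pathway, gave 179.7, 176.4 and 156.9 in the WT pools and 243.1, 219.15 and 216.6 in the TG pools. It rose by 0.36 ± 0.08 (SE, adjusted p = 0.0174 by limma), and the call was lost without WT1, WT2, WT3 or TG2 (0.33 to 0.39, adjusted p from 0.0513 to 0.0636). Cpt1b, the muscle carnitine palmitoyltransferase that malonyl-CoA inhibits, was not called (-0.22 ± 0.09, adjusted p = 0.103), nor was Mlycd, which breaks malonyl-CoA down (-0.13 ± 0.07).

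Among the regulators of lipogenic genes, 2 of 18 tested genes rose, 2 fell and 14 were not called (median -0.028). Mid1ip1, a relative of Thrsp that activates acetyl-CoA carboxylase, gave 731, 822 and 887 in the WT pools and 412, 385 and 606 in the TG pools. It fell by 0.59 ± 0.15 (SE, adjusted p = 0.0234 by limma). The call was lost without WT2, WT3, TG1 or TG2 (-0.58 to -0.49, adjusted p from 0.0625 to 0.0837), and with WT1 taken from chip 1 only (-0.46, adjusted p = 0.143). Mlx, the partner with which Mlxipl binds DNA, had a difference of -0.25 ± 0.07 (adjusted p = 0.0341) with 1 of 2 tested probes, the other at -0.06. It was -0.71 without background correction and -0.68 in the authors' deposited table. Pparg, a nuclear receptor of fat storage, had 0.37 ± 0.10 (adjusted p = 0.0281). The calls of Mlx and Pparg were each lost without any pool but TG3, with adjusted p up to 0.105 for Mlx (-0.29 to -0.22) and up to 0.0846 for Pparg (0.28 to 0.38). Usf2, an E-box factor of the Fasn promoter, had 0.33 ± 0.07 (adjusted p = 0.0107) with 1 of 2 tested probes, the other at 0.10. It was 0.21 (adjusted p = 0.136) on chip 1 alone and 0.51 without background correction. Insig2 and Rxrb count as not called by their representative probes, but a second probe was called for Insig2 (ILMN_1216822, 0.26, adjusted p = 0.0355) and for Rxrb (ILMN_2547313, -0.31, adjusted p = 0.0136). The 2 probes of Srebf1, which encodes the sterol-element factor of lipogenesis, were detected on 2 and 0 arrays and not tested. Prkaa2, the AMPK subunit of muscle that restrains acetyl-CoA carboxylase, was not called (-0.43 ± 0.15, adjusted p = 0.0703).

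Fat cells and other cells carry many of these transcripts, so marker lists were read in the same pools. The summed signal of 8 adipocyte markers was 552 to 728 in the WT pools and 542 to 1117 in the TG pools, with TG2 the highest. Adipoq and Cidec were detected on all 12 arrays and Fabp4 on 0, and 0 of 3 tested adipocyte markers were called by limma (1 at an unadjusted p under 0.05). The log2 differences of these 3 markers ran from 0.027 to 0.42, with a median of 0.42. Among 4 brown adipocyte markers, Cidea, also a lipid droplet protein, rose by 1.20 ± 0.09 (SE, adjusted p = 9.8e-05 by limma), and Ucp1 and Elovl3 were detected on 0 arrays. Their summed linear signal was 34792 to 41652 in WT and 41946 to 45556 in TG. Nearly all of it came from Cox7a1, so the sum read mainly that gene and not the cell type. Cox7a1 was not called after normalisation (0.016 ± 0.07). The summed signal of 6 endothelial markers was 3178 to 3725 in the WT pools and 4012 to 4385 in the TG pools. All 5 tested markers were positive (0.23 to 0.42, median 0.32), 4 of them at an unadjusted p under 0.05 by limma. Of the 5, 2 were called higher (Emcn 0.30, and Pecam1 0.35 with 1 of its 3 probes), against 12.1% of all tested genes. Each of those calls was lost without WT1, WT2, WT3 or TG1 (0.26 to 0.30 for Emcn, 0.24 to 0.41 for Pecam1), and that of Pecam1 also without TG2 (0.32) or TG3 (0.35). The sum of 5 Schwann cell and myelin markers was 2544 to 3391 in WT and 2380 to 2908 in TG, and that of 6 fibroblast markers reached 40226 in TG3 against 29919 to 31484 in the other pools. Of the Schwann cell, fibroblast and macrophage markers 0 were called by limma, with 2, 1 and 1 at an unadjusted p under 0.05. Over all 9131 tested genes, 1725 were higher and 2106 lower at that unadjusted threshold. The median log2 differences of these lists were 0.008, 0.34 and 0.82. All 4 macrophage markers were positive (0.41 to 1.40). The fibroblast markers ran from -0.016 to 0.93 and the Schwann cell markers from -0.46 to 0.23. Of 8 muscle markers 1 fell (Myh4, a fast myosin heavy chain, -0.22 ± 0.06, adjusted p = 0.0364), a call lost under 12 of 18 alternatives, among them every left-out pool but TG3 (-0.23 to -0.21). The difference was -0.11 under 75th percentile scaling and in the authors' deposited table. The summed linear signal of the muscle markers, taken before normalisation, was higher in every TG pool (438599 to 466776) than in any WT pool (386024 to 429556). After normalisation the log2 differences of the 8 markers ran from -0.40 to 0.16, with a median of -0.037. The part of these cells in the differences of Elovl5, Acly and the pathway genes was not tested.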

How the data were processed

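The deposited signals, non-normalized per the file headers, are linear probe intensity values. They had been background-subtracted and scaled before deposit: on each array 29.3% to 32.8% of values were negative, and all 12 arrays had a mean of 472.135. A deposited column carries a detection p-value, per the file headers. It rose with the signal (Spearman at least 0.975), so 1 minus this score was taken as the detection p. A further table deposited by the authors holds log2 values. It was rebuilt within 0.00109 from signals floored at 1. Each value was the log2 signal minus the 75th percentile of the array and the median of the probe. The column medians of the deposited table were -0.251 to 0.0935. Scale, centring and direction follow from this. Upstream software was not given in the sources used here.

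Here signals were corrected with normexp (offset 50), which compresses differences of dim probes, quantile-normalised and log2-transformed, and the 2 arrays of a pool were averaged. Probes with a detection p under 0.05 on all 6 arrays of a genotype were tested with limma 3.58.1 (lmFit, eBayes, two-sided) in R 4.3.3. Benjamini-Hochberg adjustment ran over all 15708 tested probes, with a threshold of 0.05. A pathway gene was represented by its tested probe with the highest mean. Gene names came from the platform annotation, which can be old: 34885 probes had 1 gene symbol, 18 several and 10378 none. The titles number the 2 repeats of each pool (rep1 and rep2), which were read as chip 1 and chip 2. Each chip, the only batch read from the labels, holds both genotypes. The effect of the chip on the genotype difference was tested by a limma fit to chip 2 minus chip 1 in each of the 6 pools. Precision is limited by the number of pools.

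The rule for the members uses gene names and no values, but the members and gene lists were chosen with earlier results of these data known. Named are all members, up to 4 called genes per list with the smallest p, the targeted gene and the 5 genes most like the member probe with the smallest p. Slc25a1, Me1, Fads1, Elovl1, Cpt1b, Mlycd, Srebf1, Prkaa2, Insig2, Rxrb and the undetected or detected fat markers were named with their values known. Simulated data with known changes were used to test the fit. Alternatives were no background correction and 75th percentile scaling, both with signals floored at 10. Others were cyclic loess, the authors' table, other filters and each chip alone. The rest were chip as a block over 12 arrays with a random pool effect (statmod 1.5.0), blocking by pool number and leaving out each pool. After seeing the data, WT1 from chip 1 only, with and without TG3, was added.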

Additional observations from a re-analysis of the deposited data

Results flagged for a closer look

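The genotype difference of Scd1 (ILMN_1237375) differed between the 2 chips by 1.09 on the log2 scale (chip 2 minus chip 1), although both chips carry the same 6 RNA pools. It drew attention because all 3 TG arrays lay below all 3 WT arrays on chip 1 and above them on chip 2. The limma test of the difference gave an unadjusted p of 3.84e-05 and an adjusted p of 0.603, so it did not pass over all 15708 tested probes. Between chips the signal of WT1 went from 1548 to 940.1, that of WT2 from 902 to 511 and that of WT3 from 1136 to 835. In TG1 it went from 606 to 968, in TG2 from 796 to 1056 and in TG3 from 899 to 1038. The mean over both chips, 0.035, describes neither chip, and the cause was not tested.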

How the results depend on the processing

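Elovl5 kept its direction under all 18 alternatives and its call under 17 of them. The count of members called higher, 2 as reported, was 1 without background correction, under 75th percentile scaling, on chip 2 alone and with the pool number as a replicate block, and 0 in the authors' deposited table. The count called lower, 0 as reported, was 1 (Thrsp) on chip 2 alone and under the block. With WT1 from chip 1 only and TG3 left out, 3 members were called higher (Elovl5, Acly and Mlxipl). Leaving out each pool in turn gave 1 to 2 members called higher, 1 to 4 pathway genes higher and 2 to 8 lower, and 2062 to 4220 calls over all probes against 4060. The 2 members, without TG3, were Elovl5 and Mlxipl (ILMN_2992232), while Acly was not called (adjusted p = 0.0679 by limma). On chip 2 alone there were 1457 calls, with 1 pathway gene higher and 3 lower. Pathway genes called higher, 3 as reported, were 1 in the authors' table and under 75th percentile scaling, and 5 with WT1 from chip 1 only and TG3 left out. Pathway genes called lower, 8 as reported, were 5 under the block. Scd1 (0.035) changed sign to -0.056 in the authors' table and under 75th percentile scaling, to -0.51 on chip 1 alone, to -0.075 with WT1 from chip 1 only and to -0.12 with TG3 also left out. It ranged from -0.17 to 0.19 when each pool was left out, lowest without WT2 and highest without WT1. Scd2 was 0.020 on chip 1 alone. Beyond the smaller number of arrays or pools where some were left out, the cause was not tested.

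Deviations from the genotype mean correlated at -0.42, 0.34 and -0.12 between pools with the same number, against -0.44 to 0.43 between other pairs. With 3 pools per genotype, these correlations cannot tell whether pools with the same number were handled together. The block lowered the calls over all probes to 3101. No scaling moved the median of all tested probes by over 0.1. The signal over background limits Fasn, Elovl6, Acaca and Scd2, which lie near or under the lowest detected signals.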
